A study of Mus musculus with 8 samples.

Results

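The endoplasmic reticulum (ER) chaperone, unfolded protein response and translocon genes were followed in CD4+ T cells sorted from the knee joints of mice with antigen-induced arthritis. The set comprised 33 named genes, taken by symbol from a table of 24421 symbols, and every one of them was found. They fell by role into 9 chaperones of the HSP70 and HSP90 families and their cofactors, 6 lectin chaperones and disulfide isomerases, 3 stress sensors and transcription factors, 4 genes of ER-associated degradation and 11 genes of the translocon and signal peptidase. The 4 wild-type and 4 Slc7a5 knockout libraries all came from male mice aged 16 weeks with the same joint inflammation, so there was no library from a resting or uninflamed animal. Slc7a5 encodes the light chain of the large neutral amino acid transporter LAT1, and the labels do not give the promoter or Cre line behind the knockout, the deleted part, the number of cells or whether each library was 1 animal. The p-values are therefore set by the scatter among the 8 libraries, part of which may be technical.

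The ER is where T cells fold the receptors they display and the cytokines they secrete. Nascent chains enter through the SEC61 channel, lose their signal peptide to the signal peptidase, and are folded by BiP, GRP94, the lectins calnexin and calreticulin, and the protein disulfide isomerases. When unfolded protein builds up, the sensors IRE1, ATF6 and PERK raise the chaperones and the degradation machinery, and IRE1 does so by splicing the Xbp1 transcript into the form that encodes an active transcription factor. Counts per gene do not separate the spliced from the unspliced Xbp1 transcript, and the activity of the sensors was not measured.

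Total counts ran from 18837650 to 36436923 a library and genes with at least 1 count from 5221 (knockout replicate 4) to 10139. Slc7a5 itself was counted 385, 194, 410 and 0 times in the wild-type libraries (replicates 1 to 4) and 0 times in every knockout library. The CD4+ T cell label was checked against 15 T cell identity genes, which summed to 10640 to 14471 CPM (counts per 1000000 of the scaled library) in wild type and 8342 to 10936 CPM in knockout. Of these genes 12 had lower and 3 higher estimates in knockout, with a median log2 fold change of −0.39. At an unadjusted p under 0.05 in edgeR 5 were lower and 1 higher, and 0 passed adjustment. For Cd3e, Cd247, Cd5, Lat and Zap70 the groups did not overlap and wild type was the higher, as for 4.62% of all tested genes. The part of cell content in this lean was not tested. Knockout replicate 4 held Cd4, the lineage marker, at 1.78 CPM against 344 to 427 CPM in the other knockout libraries, while its Cd3e, a chain of the T cell receptor complex, was at 382 CPM. This library stood apart, and estimates of members that moved by over 1.5 times or changed sign without it are given both ways. All 7 MHC class II genes, which antigen-presenting cells make, were tested and together ranged from 1200.2 to 3044 CPM in wild type and from 1888 to 10881 CPM in knockout, with knockout replicates 1, 2 and 4 far above the rest. Markers of monocytes, macrophages and dendritic cells other than MHC class II summed to 165 to 333 CPM in wild type and 139 to 313 CPM in knockout. Single markers moved both ways, with 3 of 7 tested estimates higher and 4 lower in knockout. Xcr1 reached 101 CPM in knockout replicate 2 and 179 CPM in replicate 4, over a wild-type maximum of 49.5 CPM. Flt3 reached 53.3 CPM in knockout replicate 1, over a wild-type maximum of 12.7 CPM. Csf1r, absent from wild type, had 44.3 CPM in knockout replicate 2 and 21.9 CPM in replicate 3. Lyz2 stayed above 22 CPM throughout wild type but was absent from knockout replicates 1 and 2. Adgre1 and Fcgr1 were at 0 in every library. The plasma cell marker Jchain and the B cell markers Ms4a1 and Pax5 were also at 0 throughout, in a list of which 12 of 16 symbols could be looked up and whose sum of 60.7 to 278 CPM was largely Irf4 and Prdm1, which T cells express too. Cd79b, a chain of the B cell receptor, did not exceed 8.12 CPM in any wild-type library, whereas knockout replicate 2 held 35.2 CPM of it, replicate 3 held 30.6 CPM and replicates 1 and 4 held none. Its partner Cd79a was at 0 throughout wild type and reached 8.96 CPM in knockout replicate 3. Neutrophil markers summed to 84.5, 155, 40.2 and 0 CPM in wild-type replicates 1 to 4 and to 0, 0, 143 and 0.0522 CPM in knockout. Synovial fibroblast markers summed to 103 to 157 CPM in wild type and 39.3 to 129 CPM in knockout, and they include Thy1 of the T cell list. Of them Dcn was at 64.5 CPM in wild-type replicate 4 and at 0 throughout knockout. The part of these other cell types in the results was not tested. Fewer cells of a type and less RNA per cell cannot be told apart in such bulk libraries.

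Some promoters of these genes hold a sequence through which the ER stress factors are known to act, and the copies are shown because they mark which members carry its letters. The ER stress element (ERSE) pairs a CCAAT box with the half-site CCACG, bound by ATF6 and XBP1, with any 9 bases between them. The shorter ERSE-II holds ATTGG and the same half-site with any 1 base between them. Promoters of 300 bases, from 250 before to 50 after the RefSeq start of transcription (GRCm38.p6), were at hand for 28 of the 33 members and were searched on both strands. The ERSE occurred in 8 of those 28 (28.6%) and in 37 of 27025 genes with such a sequence (0.137%). ERSE-II occurred in 2 of 28 (7.14%) and in 12 of 27025 genes (0.0444%). The sequence TGACGTGG, a site of ATF6 and XBP1, occurred in 0 of 28 and in 193 of 27025 genes (0.714%). No copies in the members overlapped each other. A match describes letters and not binding, and a promoter without one lacks only these letters in this window. The stretches below read 5′ to 3′ in the direction of each gene with 20 bases on either side, and capitals mark the element (which reads CGTGG to ATTGG where it lies on the other strand).
Hspa5 (chr2:34772005-34772063, + strand): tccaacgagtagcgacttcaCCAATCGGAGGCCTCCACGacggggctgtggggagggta
Hsp90b1 (chr10:86705513-86705676, − strand): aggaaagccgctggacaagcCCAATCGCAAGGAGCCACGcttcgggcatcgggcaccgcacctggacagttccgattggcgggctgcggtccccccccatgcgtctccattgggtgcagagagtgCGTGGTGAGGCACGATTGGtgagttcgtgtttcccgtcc
Dnajc3 (chr14:118937807-118937865, + strand): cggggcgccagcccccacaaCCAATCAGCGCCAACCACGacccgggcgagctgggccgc
Creld2 (chr15:88819500-88819558, + strand): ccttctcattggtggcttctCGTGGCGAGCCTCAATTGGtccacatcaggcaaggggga
Calr (chr8:84847055-84847113, − strand): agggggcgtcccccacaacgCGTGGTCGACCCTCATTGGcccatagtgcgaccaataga
Canx (chr11:50325780-50325838, − strand): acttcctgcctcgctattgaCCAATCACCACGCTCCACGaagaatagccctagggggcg
Pdia6 (chr12:17266471-17266529, + strand): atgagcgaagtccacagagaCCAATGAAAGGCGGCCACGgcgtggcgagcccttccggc
Syvn1 (chr19:6046512-6046570, + strand): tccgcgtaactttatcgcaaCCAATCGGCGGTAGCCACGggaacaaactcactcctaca
Herpud1 (chr8:94386357-94386407, + strand): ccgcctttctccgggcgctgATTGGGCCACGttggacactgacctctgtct

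The Hsp90b1 promoter held the element at 2 places, from 212 and from 107 bases before the start, in opposite orientations. In Hspa5 it began 65 and in Syvn1 44 bases before the start, and in Calr 162 bases before it. The ERSE-II of Dnajb11 lay after the start of transcription and is not printed. No translocon or signal peptidase gene with a promoter sequence carried any of these 3 sequences.

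No member differed between genotypes by the test, which was edgeR's quasi-likelihood test on the counts with Benjamini-Hochberg adjustment over all genes. Of the 33 members 32 passed the filter on low counts and were tested, and Syvn1 did not pass it. At an adjusted p under 0.05, 0 of 32 members were called, as were 0 of all 8489 tested genes (0%). At an unadjusted p under 0.05, 2 members were higher in knockout (1.87% of all tested genes were) and 0 were lower (1.97%). DESeq2 called 0 of the same 32 members (3.63% of all genes it tested), and limma voom called 0 as well. The adjusted p was 0.9336 for Hsp90b1 and 0.9999 for each other tested member. A positive log2 fold change below means a higher estimate in knockout, and with these p-values none of the estimates is a change that passed.

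The estimates nonetheless leaned upward. Of 32 tested members 21 (65.6%) had a higher estimate in knockout, against 45% of all tested genes. Their median log2 fold change was 0.23, and that of all tested genes was −0.12. Among genes with a mean of at least 50 CPM the medians were closer, at 0.14 for 29 members and −0.0054 for all 3472 genes. The 33 members together took 1.07% to 1.499% of the counts of a library, and summed to 10855, 14583, 12391 and 11688 CPM in wild-type replicates 1 to 4 and to 13029, 17833, 14946 and 13763 CPM in knockout replicates 1 to 4. The groups overlapped, since wild-type replicate 2 lay above knockout replicates 1 and 4. Higher estimates numbered 20 of 32, with a median of 0.10, when knockout replicate 4 was left out. Without the fourth library of both genotypes the median of the members was 0.05 and that of all tested genes −0.09.

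**Figure D1:**
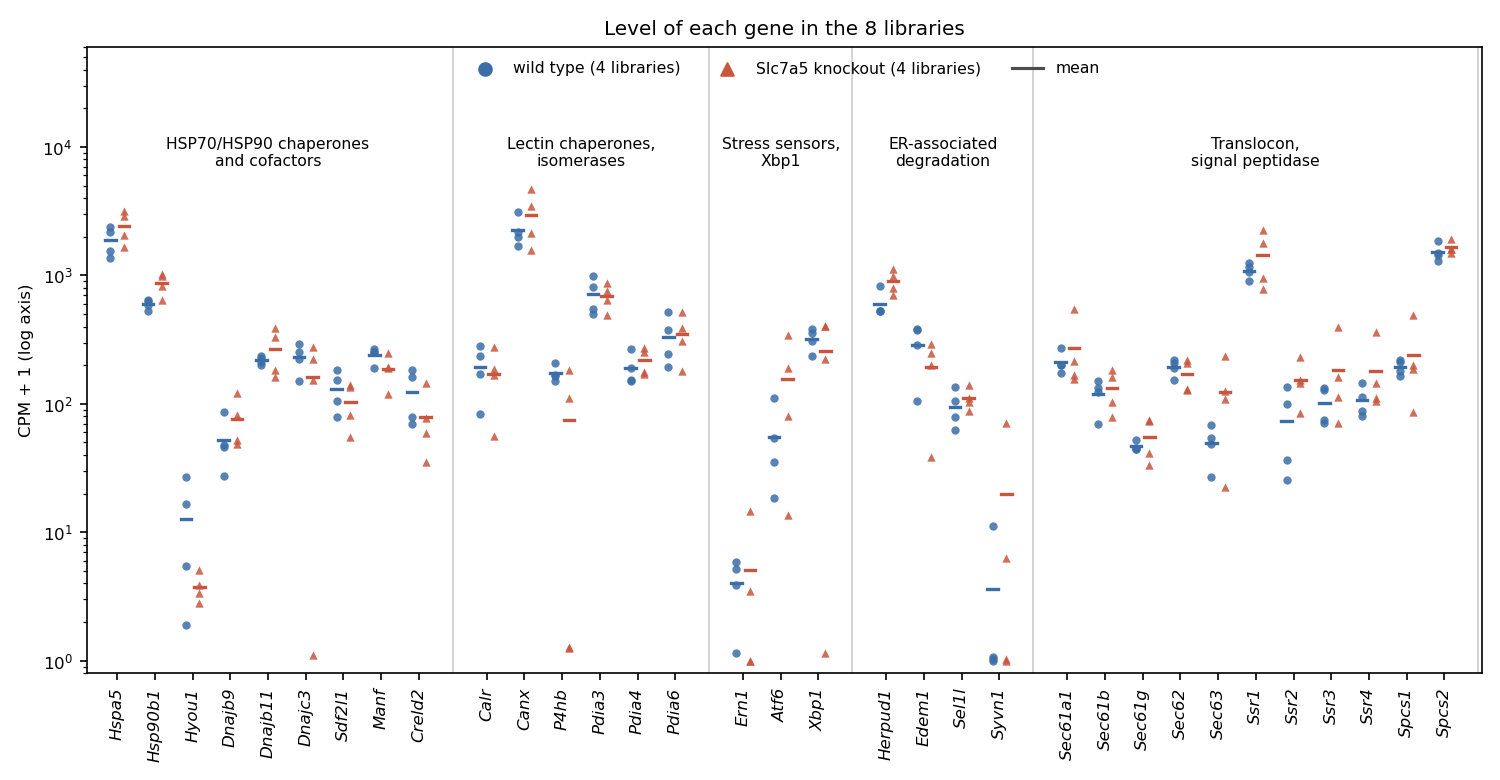
Level of each of the 33 genes as CPM + 1 on a log axis, by role. Blue circles are the 4 wild-type and red triangles the 4 Slc7a5 knockout libraries, and short bars are the group means; only for Hsp90b1 do all knockout libraries lie above all wild-type libraries, while 1 knockout library of Dnajc3, 2 of P4hb and 1 of Xbp1 lie near the bottom.

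These genes were abundant in joint T cells. Of the 32 tested members 31 were seen in all 8 libraries, against 44.6% of all tested genes. Per kilobase of annotated exon, calnexin (Canx) was highest in wild type at 480 ± 133 CPM per kb (SD, n = 4), followed by Hspa5 at 443 ± 117 and Spcs2 at 360 ± 55.9 CPM per kb, and these neighbours differed by less than their spread. Herpud1 at 257 ± 65.4, Pdia3 at 226 ± 71.6 and Hsp90b1 at 148 ± 12.4 CPM per kb came next. At the low end stood Sec63 at 5.52 ± 1.96 CPM per kb, Hyou1 at 1.63 ± 1.58, Syvn1 at 0.532 ± 1.05 and Ern1 at 0.368 ± 0.255 CPM per kb. In knockout Canx (632 ± 295 CPM per kb), Hspa5 (577 ± 166), Spcs2 (392 ± 43.7) and Herpud1 (387 ± 79.3) were again the highest. Spcs2 and Calr each have an annotated pseudogene, so reads of those genes could be shared.

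The scatter of the members between libraries was larger in knockout than in wild type. Over the 31 members seen in every library, the median coefficient of variation was 27.8% in wild type and 42.1% in knockout. Over all tested genes seen in every library, many of them less abundant, it was 35.8% and 61.0%. Knockout replicate 4 was the highest of the knockout libraries for 14 of 33 members and the lowest for 13.

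Among the HSP70 and HSP90 machinery, 4 of 9 members had higher and 5 lower estimates, with a median log2 fold change of −0.34. Without knockout replicate 4 the median was −0.10. With an offset for transcript GC content 7 of 9 were higher and the median was 0.36, beside 0.16 for all tested genes. The values of each gene below are CPM in replicates 1 to 4 of wild type and then of knockout. Hsp90b1 encodes GRP94, the HSP90 of the ER, which folds integrins and Toll-like receptors. It had wild-type levels of 584, 633, 637 and 531 CPM and knockout levels of 832, 992, 646 and 1029.8 CPM. Each knockout library lay above every wild-type library, as for 1 of 32 tested members (1.52% of all tested genes did so in this direction). The log2 fold change was 0.55 (SE 0.21, unadjusted p = 0.0222, adjusted p = 0.9336 in edgeR). Knockout replicate 3 was nearest to wild type, and on library totals without TMM scaling it was at 627 CPM, below wild-type replicates 2 and 3 at 651 and 659.9 CPM. The estimate was 0.31 in limma voom with quality weights and 0.84 with an offset for transcript GC content. An annotated gene on the opposite strand, 1810014B01Rik, shares exon sequence with Hsp90b1.

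Hspa5 encodes BiP, the HSP70 of the ER that binds nascent chains and holds the stress sensors inactive. It had wild-type levels of 1361, 2190.4, 1554 and 2389 CPM and knockout levels of 2061, 2884, 1649 and 3161 CPM, with a log2 fold change of 0.38 (SE 0.25). The 2 highest values were knockout replicates 4 and 2, and knockout replicates 1 and 3 lay within the wild-type range. Without knockout replicate 4 the estimate was 0.22, in limma voom with quality weights it was 0.19, and with the GC offset it was 0.82. Hsp90b1 and Hspa5 ranked the 4 knockout libraries in the same order, replicate 4 above 2, 1 and 3, and the summed MHC class II transcripts had that order too. Of 33 members 3 had it, the other being Ssr3. This likeness was picked out after the values were seen, and 24 orders are possible. Within wild type the orders differed, where MHC class II was highest in replicate 1, Hsp90b1 in replicate 3 and Hspa5 in replicate 4. The part of antigen-presenting cells in these levels was not tested.

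**Figure D2:**
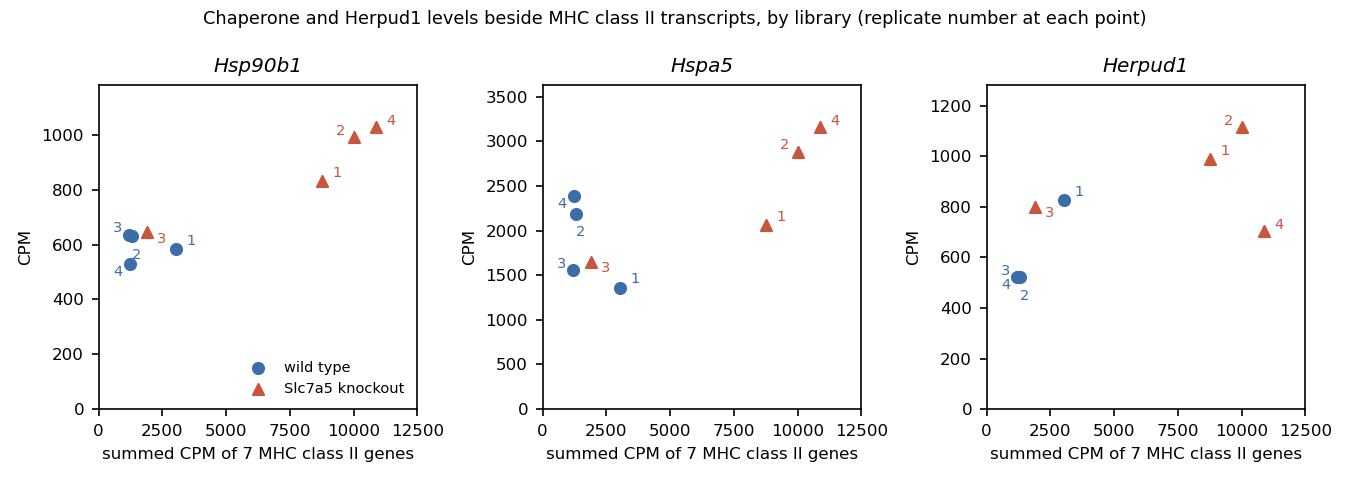
CPM of Hsp90b1, Hspa5 and Herpud1 (vertical axes) against the summed CPM of 7 MHC class II genes (horizontal axis) in each library, with the replicate number at each point; blue circles are wild type and red triangles Slc7a5 knockout. Knockout replicates 1, 2 and 4 lie to the right in each panel, replicates 2 and 4 at the top for Hsp90b1 and Hspa5 and knockout replicate 3 near the wild-type libraries, whereas Herpud1 in knockout replicate 4 is at 704 CPM beside the highest MHC class II sum.

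The J-domain cofactors, which drive the ATP cycle of BiP, went different ways. Dnajb9, which hands misfolded chains to degradation and holds IRE1 in check, had wild-type levels of 44.9, 26.4, 47.1 and 85.7 CPM and knockout levels of 80.6, 51.3, 48.0 and 121 CPM (log2 fold change 0.56, SE 0.89, and 0.22 without knockout replicate 4). Dnajb11, a co-chaperone of folding, had wild-type levels of 210.3, 200.1, 233 and 228 CPM and knockout levels of 182, 390.3, 329 and 161 CPM (0.29, SE 0.35, and 0.45 without that library). Wild type was tight for Dnajb11, with a coefficient of variation of 7.06%, and knockout replicates lay on both sides of it. Dnajc3, known as p58IPK, had wild-type levels of 223, 252, 293 and 149 CPM and knockout levels of 151, 274, 222 and 0.104 CPM. That last value is 2 counts in knockout replicate 4, against 3380 to 9535 counts in wild type. The log2 fold change was −0.50 (SE 1.18), and without knockout replicate 4 it was −0.10.

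Small soluble partners of BiP had lower estimates, all with overlapping groups. Sdf2l1, which sits in a complex with BiP and its J-domain partners, had wild-type levels of 104, 153, 183 and 78.6 CPM and knockout levels of 135, 139, 80.7 and 54.0 CPM (log2 fold change −0.34, SE 0.53). Manf, a secreted ER stress factor that binds BiP, had wild-type levels of 251, 265, 254 and 191 CPM and knockout levels of 119, 194, 247 and 189 CPM (−0.36, SE 0.33). Creld2, an ER protein induced by stress, had wild-type levels of 78.4, 159.9, 183 and 69.2 CPM and knockout levels of 34.1, 75.9, 57.9 and 145 CPM (−0.65, SE 0.65). Knockout replicate 4 was above 2 wild-type libraries for Creld2 and the lowest of all libraries for Sdf2l1, and without it the estimates were −1.15 and −0.15. Hyou1, the large HSP70-like nucleotide exchange factor of BiP, was scarce, with wild-type levels of 15.6, 4.48, 0.892 and 26.1 CPM and knockout levels of 2.86, 4.06, 2.35 and 1.83 CPM (−2.08, SE 1.90). Its 4 knockout values lay inside the wild-type range of 0.892 to 26.1 CPM. With an offset for transcript GC content the estimates for Sdf2l1, Manf and Creld2 turned to 0.32, 0.22 and 0.36, in a fit where the median of all genes was 0.16.

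**Figure D3:**
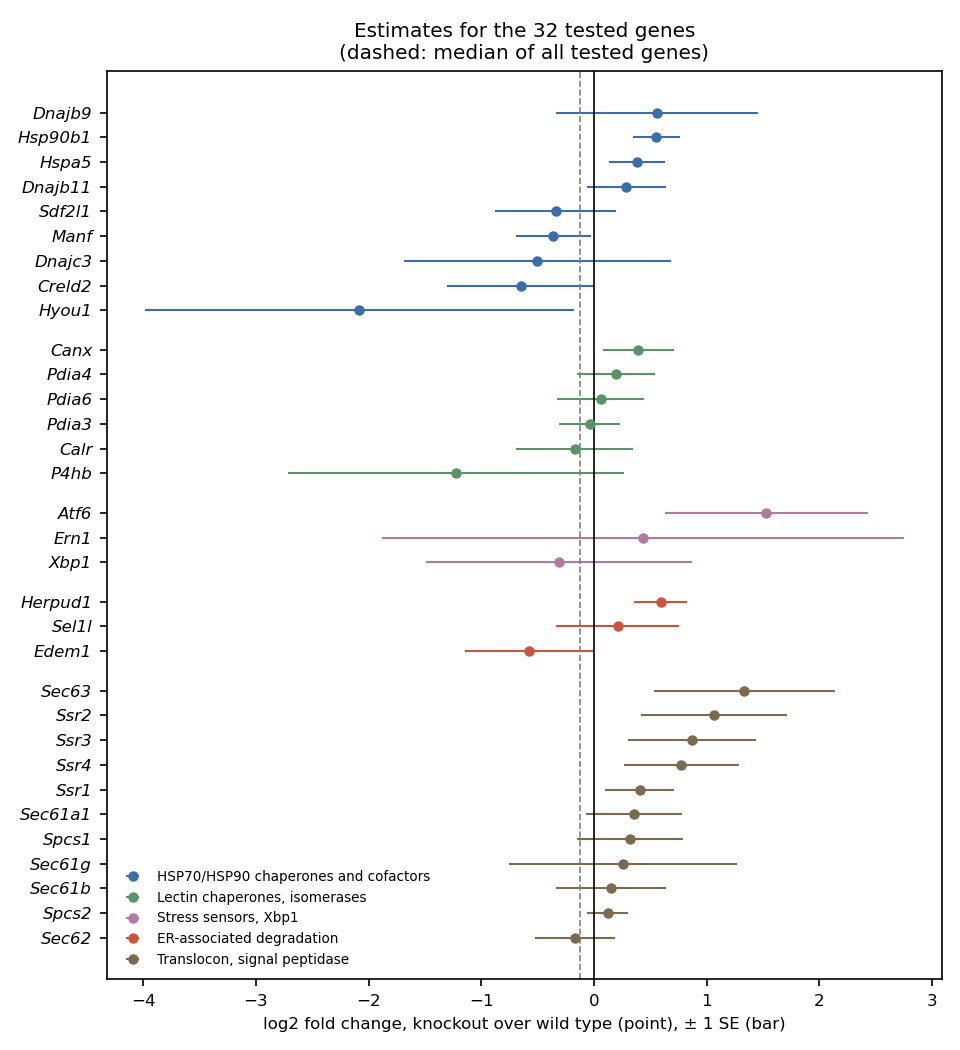
Log2 fold change of knockout over wild type for the 32 tested genes, ordered within role, with bars of 1 SE to either side; the solid line is 0 and the dashed line the median of all tested genes, −0.12. Hsp90b1 and Herpud1 have the shortest bars clear of 0, and 10 of 11 translocon and signal peptidase genes lie to the right of 0.

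Of the lectin chaperones and disulfide isomerases 3 of 6 members had higher and 3 lower estimates (median 0.01). Canx, the membrane-bound lectin chaperone of glycoproteins, had wild-type levels of 1696, 3139, 2192 and 1993 CPM and knockout levels of 2154, 4668, 3466 and 1572 CPM (log2 fold change 0.39, SE 0.31). Both the highest and the lowest value of Canx came from knockout libraries, replicates 2 and 4. Calr, its soluble counterpart, had wild-type levels of 279, 169, 236 and 82.2 CPM and knockout levels of 184, 55.1, 275 and 166 CPM (−0.17, SE 0.52). The 2 lectins went opposite ways in knockout replicate 2, where Canx was at its highest and Calr at its lowest.

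The isomerases, which form and rearrange disulfide bonds, showed no common direction. Pdia3, the partner of both lectins and of MHC class I loading, had wild-type levels of 549, 980.4, 806 and 503 CPM and knockout levels of 874, 638, 760.1 and 493 CPM (log2 fold change −0.04, SE 0.27). Pdia4 had wild-type levels of 149.8, 266, 153 and 191 CPM and knockout levels of 175, 171, 253 and 271 CPM (0.19, SE 0.35). Pdia6, an isomerase that also restrains IRE1, had wild-type levels of 194, 378, 243 and 514 CPM and knockout levels of 514, 386, 306 and 178 CPM (0.06, SE 0.39). The groups overlapped for these 3 isomerases, and the estimate of Pdia3 was above 0 and that of Pdia6 below 0 under some settings. Without knockout replicate 4 the estimates were 0.08 for Pdia3, 0.06 for Pdia4 and 0.26 for Pdia6. P4hb, the founding protein disulfide isomerase, had wild-type levels of 207, 149, 164 and 166 CPM and knockout levels of 109.6, 0.278, 183 and 0.261 CPM. It had 5 counts in knockout replicate 2 and 5 in knockout replicate 4, against 3749 to 7454 in wild type, while knockout replicate 3 at 183 CPM was within the wild-type range. Its log2 fold change was −1.23 (SE 1.49) and −0.83 without knockout replicate 4.

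The sensors and their transcription factor varied widely between libraries. Atf6, the sensor that is cut in the Golgi to release a transcription factor, had wild-type levels of 17.6, 34.5, 53.0 and 110.1 CPM and knockout levels of 188, 79.5, 12.5 and 342 CPM (log2 fold change 1.53, SE 0.90). Knockout replicates 4 and 1 were the highest of all libraries and knockout replicate 3 the lowest. Without knockout replicate 4 the estimate was 0.78. Ern1, which encodes IRE1 alpha, was near the limit of detection, with wild-type levels of 0.139, 4.88, 2.86 and 4.15 CPM and knockout levels of 13.8, 0, 2.47 and 0 CPM (0.43, SE 2.32), and 2 knockout libraries held 0 counts. Its estimate was −1.86 without knockout replicate 1, the library with 327 counts, and 0.84 without knockout replicate 4. Xbp1, the target of IRE1 splicing, had wild-type levels of 307, 352, 381 and 235 CPM and knockout levels of 222, 401, 406 and 0.157 CPM (−0.31, SE 1.18).

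Knockout replicate 4 held 3 Xbp1 counts, against 5332 to 12386 in wild type. Without it the Xbp1 estimate was 0.09, and knockout replicates 2 and 3 at 401 and 406 CPM were above every wild-type library. The same library had the highest Hspa5, Hsp90b1 and Dnajb9 of all 8. In it 43.7% of all tested genes were at 0, against 2.86% to 19.3% in the other 7 libraries, and 1 of the 32 tested members was (3.13%). What part the low gene detection of this library had in its few Dnajc3, P4hb and Xbp1 reads was not tested.

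**Figure D4:**
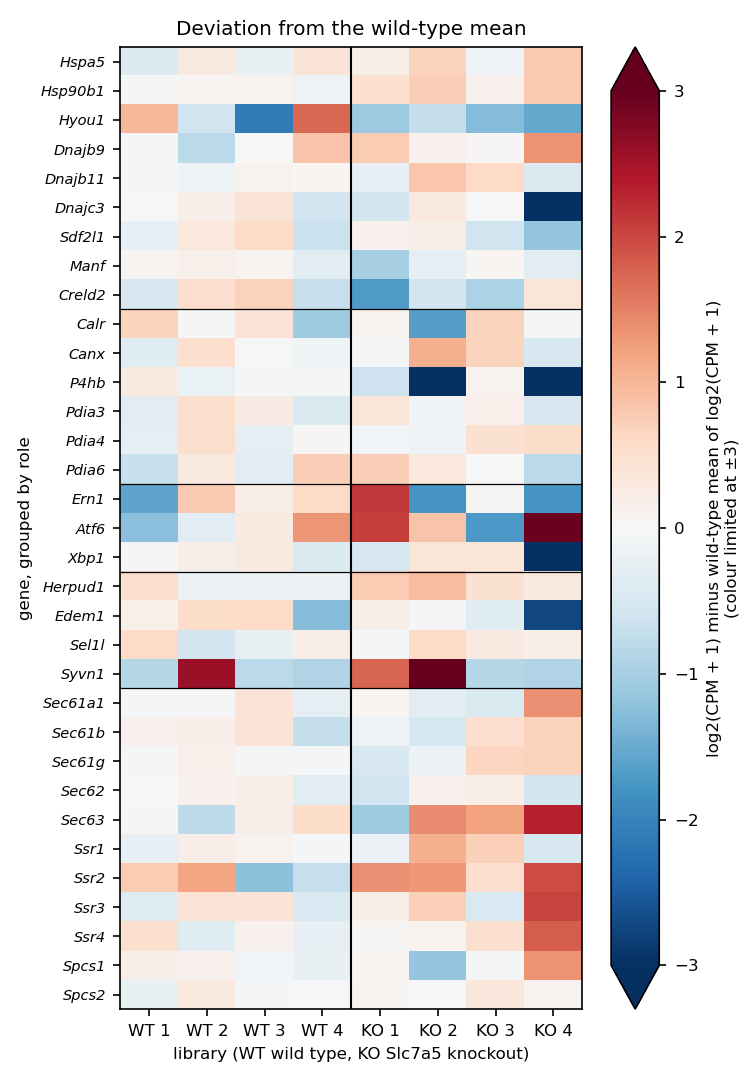
Deviation of each library from the wild-type mean, as log2(CPM + 1) minus the wild-type mean of log2(CPM + 1), for the 33 genes in rows by role and the 8 libraries in columns (WT wild type, KO Slc7a5 knockout); red is higher, blue lower, and colours are limited at 3 in either direction. Knockout replicate 4 holds deep blue cells for Dnajc3, P4hb and Xbp1 and red cells for Atf6 and most translocon genes.

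In ER-associated degradation, which returns misfolded proteins to the cytosol for the proteasome, 2 of 3 tested members had higher estimates. Herpud1, a membrane organiser of the ligase complex and a sensitive target of the stress response, had wild-type levels of 828, 523, 523 and 523 CPM and knockout levels of 988, 1117, 801 and 704 CPM (log2 fold change 0.59, SE 0.24). It was the other member with an unadjusted p under 0.05 (0.0296, adjusted p = 0.9999 in edgeR). Wild-type replicates 2 to 4 sat together at 523 CPM, all knockout libraries lay above those, and wild-type replicate 1 lay above knockout replicates 3 and 4. Wild-type replicate 1 also had the highest MHC class II sum of wild type, 3044 CPM. Without the fourth library of both genotypes the estimate was 0.61, without wild-type replicate 1 it was 0.79, and with the GC offset it was 1.19.

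Edem1, a lectin that directs glycoproteins to degradation, had wild-type levels of 287, 378, 384 and 104 CPM and knockout levels of 290.2, 246, 199 and 37.6 CPM (log2 fold change −0.58, SE 0.57). The fourth library was the lowest of both genotypes for Edem1, and without knockout replicate 4 the estimate was −0.25. Sel1l, the scaffold of the HRD1 ligase, had wild-type levels of 135, 61.1, 77.7 and 104 CPM and knockout levels of 86.5, 138, 109 and 102 CPM (0.21, SE 0.55), with overlapping groups. Syvn1, the HRD1 ligase itself, was uneven, with wild-type levels of 0.0278, 10.3, 0.0616 and 0 CPM and knockout levels of 5.27, 70.5, 0.0398 and 0 CPM, and was not tested. Its exons overlap Mrpl49 on the opposite strand, and in wild type its level per kilobase was below that of its scaffold Sel1l (11.0 ± 3.75 CPM per kb, SD, n = 4).

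The translocon and signal peptidase genes leaned upward. Of 11 members 10 had higher estimates and 1 lower, with a median log2 fold change of 0.35, beside −0.12 for all tested genes. The lean rested in part on knockout replicate 4. Without that library 7 of 11 were higher (median 0.12), and without the fourth library of both genotypes 7 of 11 were higher (median 0.05). Over all 19 alternatives the count ran from 6 to 10. The difference from the other roles was not tested.

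The channel itself is built of 3 subunits. Sec61a1, the pore, had wild-type levels of 198, 201, 273 and 173 CPM and knockout levels of 216, 167, 155 and 542 CPM (log2 fold change 0.35, SE 0.43). Sec61b had wild-type levels of 123, 131, 149 and 68.3 CPM and knockout levels of 102, 78.0, 161 and 182 CPM (0.15, SE 0.49). Sec61g had wild-type levels of 43.7, 50.9, 43.9 and 44.1 CPM and knockout levels of 32.2, 40.5, 72.1 and 73.7 CPM (0.26, SE 1.01). Knockout replicate 4 was the highest of all libraries for each of the 3 subunits, and without it the estimate was −0.25 for Sec61a1, −0.07 for Sec61b and 0.07 for Sec61g.

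Sec62 and Sec63 assist chains that enter after synthesis and link the channel to BiP. Sec62 had wild-type levels of 189.6, 206, 218 and 151 CPM and knockout levels of 128, 206, 217 and 129.6 CPM and was the lone translocon gene with a lower estimate (log2 fold change −0.17, SE 0.35). Sec63, which carries a J-domain that recruits BiP, had wild-type levels of 47.4, 26.1, 53.0 and 67.6 CPM and knockout levels of 21.6, 124, 107 and 236 CPM (1.33, SE 0.80). Knockout replicates 2, 3 and 4 lay above every wild-type library for Sec63 and knockout replicate 1 lay below every one. The estimates were −0.07 for Sec62 and 0.78 for Sec63 without knockout replicate 4.

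The translocon-associated protein complex (TRAP), which helps certain chains into the channel, has the 4 subunits Ssr1 to Ssr4. Ssr1 had wild-type levels of 905, 1237, 1159 and 1058 CPM and knockout levels of 957, 2257, 1774 and 779.7 CPM (log2 fold change 0.40, SE 0.31). Its knockout libraries spread to both sides of wild type, replicates 2 and 3 above and replicate 4 below it. Ssr2 had wild-type levels of 99.4, 133, 24.3 and 35.5 CPM and knockout levels of 152, 145, 84.2 and 230.3 CPM (1.06, SE 0.65), with knockout replicates 1, 2 and 4 above every wild-type library. Ssr3 had wild-type levels of 73.7, 131, 127 and 69.8 CPM and knockout levels of 111, 159, 69.7 and 395 CPM (0.87, SE 0.57). Ssr4 had wild-type levels of 144, 79.2, 112 and 86.7 CPM and knockout levels of 104, 111, 144 and 364 CPM (0.78, SE 0.51). Ssr2, Ssr3 and Ssr4 were each highest in knockout replicate 4, the library in which Ssr1 was lowest, so subunits of 1 complex did not move together there. Without it the estimate was 0.16 for Ssr3 and 0.17 for Ssr4.

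Signal peptidase cuts the signal peptide on the ER side. Spcs1 had wild-type levels of 216, 209.7, 179.8 and 164 CPM and knockout levels of 200.2, 84.6, 187 and 490.1 CPM (log2 fold change 0.32, SE 0.47), with knockout replicate 2 lowest and replicate 4 highest of all libraries. Without knockout replicate 4 the estimate was −0.31. Spcs2 had wild-type levels of 1292, 1851, 1450.1 and 1494 CPM and knockout levels of 1602, 1485, 1917 and 1614 CPM (0.12, SE 0.18). Its highest library was 1.48 times its lowest, the smallest such ratio among the 33 members.

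The members with a stress element in their promoter were not set apart by their estimates. Of 9 tested members with ERSE or ERSE-II 6 had higher and 3 lower estimates, with a median estimate of 0.29 on the log2 scale and a range from −0.65 (Creld2) to 0.59 (Herpud1). Of 18 tested members without one 12 were higher and 6 lower, with a median of 0.20 and a range from −1.23 (P4hb) to 1.33 (Sec63). Hspa5, Hsp90b1, Canx and Pdia6 (0.06), all with ERSE, had positive estimates, and so had Herpud1 and Dnajb11 with ERSE-II. Dnajc3, Creld2 and Calr, also with ERSE, had negative ones.

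**Figure D5:**
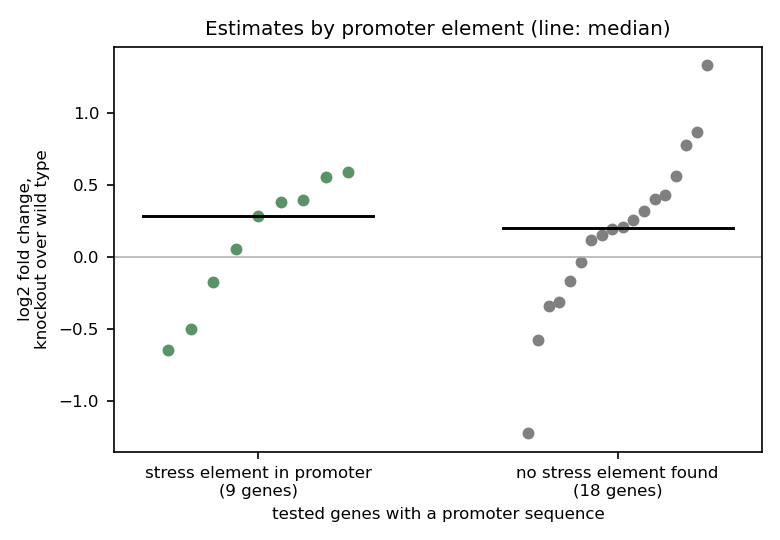
Log2 fold change of knockout over wild type for the 27 tested genes with a promoter sequence, split into 9 with ERSE or ERSE-II (green) and 18 without either (grey); each point is a gene and the line is the median. The medians are 0.29 and 0.20 and the ranges overlap.

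In the wider ER machinery lower estimates were the more common, as they were among all tested genes (45% higher, median log2 fold change −0.12). In 7 further lists of pathway genes 80 genes were tested, of which 30 (37.5%) had higher and 50 lower estimates, with a median log2 fold change of −0.20, and 0 were called in edgeR (3 higher and 4 lower at an unadjusted p under 0.05). Without knockout replicate 4, an alternative added after the data were seen, 35 of the 80 (43.8%) were higher. The median was then −0.09, beside −0.08 for all tested genes. Oligosaccharyltransferase subunits, which attach the glycans that calnexin and calreticulin read, were higher for 3 and lower for 9 of 12 (median −0.48). Rpn2, a subunit of that complex, had wild-type levels of 158, 250.2, 281 and 207 CPM and knockout levels of 94.1, 55.2, 112 and 153 CPM (−1.12, SE 0.42). Every knockout library lay below all wild-type libraries for Rpn2, a direction in which 4.62% of all tested genes were separated. Signal recognition particle genes, which bring ribosomes to the channel, were higher for 3 and lower for 6 of 9 (median −0.34). Their gene with the smallest p was Srp54b, with wild-type levels of 227, 289, 292 and 203 CPM and knockout levels of 268, 387, 362 and 1121 CPM (1.08, SE 0.42, and 0.41 without knockout replicate 4), whose reads could be shared with its near-identical copies.

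The PERK arm had 3 higher and 3 lower estimates of 6 tested (median −0.07), led by Nfe2l2, an antioxidant regulator that PERK phosphorylates (log2 fold change 1.29, SE 0.88). Without knockout replicate 4 the estimate of Atf4 went from 0.23 to −1.20 and that of Ppp1r15b from 0.98 to −0.89, so the even split did not hold. Trib3 and Chac1, targets of the PERK arm, were at 0 in every library. Of the ATF6 proteases, relatives and trafficking genes, a list that includes Tmbim6, 4 of 5 tested were lower. The median of −0.33 was the estimate of Tmbim6 itself. Without knockout replicate 4 the estimate of Mbtps1 in this list turned from −0.20 to 0.19. Tmbim6, a membrane protein of ER calcium balance, had wild-type levels of 2372, 2554, 2469 and 3057 CPM and knockout levels of 2197, 1715, 2091 and 2333 CPM (−0.33, SE 0.17). Every knockout library lay below all wild-type libraries for Tmbim6, by a narrow gap (2333 CPM against 2372 CPM). Of the 80 further genes tested 7 were separated in this direction, beside 4.62% of all tested genes. In the other direction 2 of the 80 were separated, beside 1.52% of all tested genes. Further degradation genes were lower for 10 of 17 (median −0.19), with Os9, a lectin of the HRD1 complex, having wild-type levels of 174, 282, 283 and 353 CPM and knockout levels of 96.4, 139, 144 and 185 CPM (−0.95, SE 0.36). Without knockout replicate 4 the estimates of Ube2j2 (0.18) and Vimp (0.01) turned to above 0, and lower ones were no longer the majority.

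Further folding genes were lower for 10 of 16 (median −0.11). Their smallest unadjusted p in edgeR (0.027) belonged to Tmx1, a transmembrane thioredoxin with a higher estimate. It had wild-type levels of 34.2, 160.0, 172 and 54.1 CPM and knockout levels of 197, 172, 274 and 479.7 CPM (log2 fold change 1.42, SE 0.56). Sil1 had nearly the same unadjusted p in edgeR (0.0272) in the other direction. It held 14.5 to 22.7 CPM in wild type and 0 to 0.637 CPM in knockout (−6.61, SE 2.62). The genotypes did not overlap for either gene, as for 1.52% (higher) and 4.62% (lower) of all tested genes. Further translocon and peptidase genes were higher for 7 and lower for 8 of 15 (median −0.06), with Sec11a, the catalytic subunit of signal peptidase, at a log2 fold change of 0.40 (SE 0.31), or 0.07 without knockout replicate 4. Leaving that library out also turned Tram1 (0.04), Emc1 (0.34) and Emc6 (0.31) to above 0 and Emc3 (−0.15) to below it. With adjusted p-values of 0.914 or more in edgeR, none of these genes passed. Early response and heat shock genes that tissue digestion raises summed to 3781 to 6714 CPM in wild type and 2312 to 4941 CPM in knockout. Of 11 tested 10 had lower estimates in knockout (median −0.31), 2 of them at an unadjusted p under 0.05 in edgeR, and 0 passed adjustment. Only for Ier2 did the groups not overlap, with wild type the higher, as for 4.62% of all tested genes. The part of these genes in the values above was not tested.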

How the data were processed

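RNA from CD4+ T cells sorted out of digested arthritic knees was turned into sequencing libraries by a kit for low input that amplifies the material, per the labels' protocols. The deposited table holds raw counts, whole reads per gene symbol that the authors did not normalize. HISAT2 2.1.0, featureCounts, edgeR 3.28.1 and mm10 are named, per the submitters' processing notes, while annotation and strand setting are not given in the sources used here, so reads of overlapping genes cannot be told apart.

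All 8489 genes that passed filterByExpr (minimum count 10, minimum total 15) were fitted together in R 4.3.3 with edgeR 4.0.16 (TMM scaling, robust quasi-likelihood test, genotype as the only term), with Benjamini-Hochberg adjustment over all of them and a threshold of 0.05. Each SE was taken as the size of the estimate divided by the root of its F statistic. DESeq2 1.42.0 and limma 3.58.1 served as alternatives. CPM is the count per 1000000 of TMM-scaled library size, given as mean ± SD. Exon lengths and GC content came from GENCODE M21 (GRCm38, the build of mm10), and GC content was known for 8200 tested genes. The GC offset was a loess curve per library (span 0.75) over genes with a mean log2 CPM above 5. The fit was tested on simulated data. Replicate numbers were not treated as pairs, since deviations of same-numbered libraries correlated at −0.02, 0.02, 0.02 and 0.05. With libraries of 18837650 to 36436923 counts, read depth adds little error for abundant members. The input was low and amplified, and error from the number of starting molecules was not measured.

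The members and lists were chosen with earlier results of these data known. Values were to be printed for members seen in all libraries or at a mean CPM of 20 or more, and in each pathway list for the gene with the smallest p.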

Additional observations from a re-analysis of the deposited data

Results flagged for a closer look

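In 6 of 66 sets of 4 libraries (33 genes in each of 2 genotypes), 1 library lay far from the other 3 by Dixon's ratio at the 95% level. Chance gives this in about 5% of sets where values are independent and normal. Here the ratio was taken on CPM without a log and the sets share libraries, so 5% is a rough guide only. All 6 lay above the others, the side on which CPM without a log spreads further. Herpud1, the degradation organiser, was at 828 CPM in wild-type replicate 1 and at 523 CPM in replicates 2 to 4. Syvn1, the HRD1 ligase, was at 10.3 CPM in wild-type replicate 2, with the others between 0 and 0.0616 CPM, and at 70.5 CPM in knockout replicate 2, with the others between 0 and 5.27 CPM. Sec61a1, the channel pore, was at 542 CPM in knockout replicate 4 and between 155 and 216 CPM in the other knockout libraries. Ssr4, a TRAP subunit, was at 364 CPM in the same library and between 104 and 144 CPM in the others. Sec61g, a small channel subunit, was at 50.9 CPM in wild-type replicate 2 and between 43.7 and 44.1 CPM in the others, a narrow range.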

How the results depend on the processing

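In each of 19 alternatives, and at an adjusted p under 0.1, 0 of the 33 genes were called. Of all genes, 387 were called in DESeq2, 9 in limma voom and 4 in limma voom with quality weights, against 0 in edgeR, and the replicate block left the edgeR count at 0. The replicate numbers are no more than names here, and not every library correlated best with its own number. Of 32 tested members 20 kept the sign of their estimate throughout and 12 did not. The median of the members was 0.58 with the GC offset and 0.052 without replicate 4 of both genotypes, where the median of all genes was 0.16 and −0.09. The all-gene median was −0.68 with the replicate block and −1.28 in limma voom, so estimates there are to be read against it. Signs turned with the GC offset for Sdf2l1 (0.32), Manf (0.22), Creld2 (0.36), Calr (0.35) and Pdia3 (0.26). The Pdia3 estimate was 0.0014 with DESeq2 size factors, 0.00024 in DESeq2, 0.013 in limma voom and 0.015 with quality weights. Pdia6 turned under upper quartile scaling (−0.0092) and library totals (−0.035), and Ern1 in limma voom (−2.07), with quality weights (−0.17) and with the replicate block (−3.58). Quality weights also turned Sec61a1 (−0.29), Sec61b (−0.053), Ssr3 (−0.16) and Spcs1 (−0.18). Without replicate 4 of both genotypes Sec61a1 (−0.34), Sec61b (−0.26) and Spcs1 (−0.38) turned. With 1 library left out at a time, estimates ran from −0.50 to 0.097 for Calr, −0.17 to 0.14 for Pdia3, −0.19 to 0.35 for Pdia6, −1.86 to 0.84 for Ern1, −0.63 to 0.090 for Xbp1, −0.25 to 0.55 for Sec61a1, −0.067 to 0.31 for Sec61b and −0.31 to 0.58 for Spcs1. The cause of these turns was not tested. With 4 libraries a genotype and SEs of 0.18 to 2.32, small differences could not be detected, and the estimates of Hyou1 and Ern1 rested on low counts.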

Other observations

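Outside the 33 genes, 29 others carried the ERSE letters in their promoter, among them Derl3, a degradation gene induced in secretory cells, which was at 0 in every library, and Ero1b, an oxidase of disulfide formation counted under its older symbol Ero1lb, which had 2 wild-type libraries and 1 knockout library at 0. Its log2 fold change was 1.22 (SE 2.49), and 0.40 without knockout replicate 4. Of these 29 genes 8 were tested, of which 6 had higher and 2 lower estimates in knockout, beside 45% higher among all tested genes. The 2 lower were Alg12, a mannosyltransferase of glycan assembly, with a log2 fold change of −1.46, and Pan2 at −2.09. Adcy3 was at 2.85 and Hnrnpa3, an RNA-binding protein, at 0.78. The 3 copies Xlr3a, Xlr3b and Xlr3c, whose reads could be shared, had estimates of 2.44, 2.74 and 4.31. These copies make up 3 of the 6 higher estimates, so the 6 may not be separate observations. These genes were looked up by sequence alone and no test was made of them as a group.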
